A study of Mus musculus with 12 samples.

Results

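The genes described here are the inhibitors of cyclin-dependent kinases (CDKs) and the D-type cyclins of the mouse, 10 of the 22063 genes in the deposited table. They were taken by symbol and fall into 3 families: the CIP/KIP inhibitors Cdkn1a, Cdkn1b and Cdkn1c, the INK4 inhibitors Cdkn2a, Cdkn2b, Cdkn2c and Cdkn2d, and the D-type cyclins Ccnd1, Ccnd2 and Ccnd3. That rule uses symbols alone, but it was set with earlier results of these data known. All 10 had enough counts to be tested, as did 13670 genes in all.

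D-type cyclins bind the kinases CDK4 and CDK6, which phosphorylate the retinoblastoma protein and so release E2F transcription factors for entry into S phase. INK4 proteins bind CDK4 and CDK6 and keep the D cyclins off them, whereas CIP/KIP proteins bind assembled cyclin-CDK complexes, chiefly those of CDK2. Cdkn1c, which encodes p57Kip2, is expressed from the maternal allele and is needed in mice for growth plate chondrocytes to leave the cell cycle.

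The cells were mesenchymal cells of passage 2 that grew out of mandibular condyles, taken on postnatal day 1.5 from mice with the genotype Plagl1 fl/fl. Plagl1 encodes an imprinted zinc finger transcription factor, and both alleles are floxed in every group, controls included. OI-AdV-CRE-EGFP and OI-AdV-EGFP cells were taken after 4 days of osteogenic induction (OI), in medium with 100 nM of dexamethasone, a synthetic glucocorticoid, 50 μg/mL of ascorbic acid and 5 mM of β-glycerophosphate, and AdV-CRE-EGFP and AdV-EGFP cells on day 0, before induction. AdV-CRE-EGFP is an adenovirus that carries Cre recombinase with EGFP and AdV-EGFP its control without Cre (HBAD-CRE-EGFP and HBAD-EGFP in the labels), each given at a multiplicity of infection of 100, and each of the 4 groups held 3 libraries. No group was kept for 4 days without the osteogenic medium, so induction and 4 more days in culture cannot be told apart. Whether the 3 libraries within a group are separate cultures or animals is not stated, so the p-values refer to library-to-library spread that may be technical.

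Library totals ran from 15316989 to 18052040 counts, of which the 10 genes took 0.278% to 0.414%. For one gene across libraries, levels are given as CPM, the count relative to the TMM-scaled library total, and for different genes within a library as the authors' FPKM, which also divides by transcript length. The CPM of summed markers and of genes that were not tested are relative to the library total without TMM scaling. A gene was called in edgeR's quasi-likelihood test at a Benjamini-Hochberg adjusted p under 0.05 over all 13670 genes where its log2 fold change was also 1 or more in either direction, and the interaction of Cre and induction at the adjusted p alone. Rose and fell are written of called genes only, and higher and lower of a difference of any size. Each group enters several comparisons, so these share libraries. Plagl1 RNA was not lower in the Cre groups: it had 368 to 404 CPM in OI-AdV-CRE-EGFP, against 380 to 402 CPM in OI-AdV-EGFP, and 581 to 594 CPM in AdV-CRE-EGFP, against 386 to 426 CPM in AdV-EGFP. A gene total does not show whether the floxed exons were lost, so the Cre groups are named as labelled and each Cre difference is one between libraries so labelled. By Western blot, the study reported less PLAGL1 protein in cells given the Cre virus, after osteogenic induction. All 7 mesenchymal markers were detected, Col1a1 and Pdgfra among them, with a summed level between 12004 and 17429 CPM in every library. Summed markers of several other cell types moved with the groups. Those of chondrocytes lay between 50.7 and 68.3 CPM in every library, with overlap between groups. That sum came chiefly from Sox9, with group means of 38.1 to 53.1 CPM. Of the 4 chondrocyte genes tested, 2 were called lower with induction with each virus and 0 higher. Of all genes, 8.62% were called lower in AdV-CRE-EGFP cells and 10.8% in AdV-EGFP cells. Summed markers of skeletal muscle lay between 7.08 and 15.8 CPM and those of epithelium between 0.653 and 2.93 CPM. Those of adipocytes lay at 330 to 370 CPM in OI-AdV-CRE-EGFP and 149 to 165 CPM in OI-AdV-EGFP, and at 35.2 to 37.9 CPM in AdV-CRE-EGFP and 15.7 to 18.3 CPM in AdV-EGFP. Of the adipocyte list, 4 of 5 genes were tested, and the fat droplet protein Plin1 stayed under 1 CPM on average in each group. The 6 markers of macrophages and osteoclasts, all of them tested, summed to 924 to 947 CPM in OI-AdV-CRE-EGFP and 458 to 496 CPM in OI-AdV-EGFP, and to 572 to 625 CPM in AdV-CRE-EGFP and 196 to 207 CPM in AdV-EGFP. Most of that sum was the protease gene Ctsk, which fibroblasts also express. At the adjusted p alone 5 of 6 were higher with induction with either virus. Of all genes, 71.2% passed in either direction in AdV-CRE-EGFP cells and 76.2% in AdV-EGFP cells. With Cre before induction 4 of 6 of these markers were higher, beside 29.3% of all genes in either direction. The 4 endothelial markers, all tested, summed to 32.3 to 35.2 CPM in OI-AdV-CRE-EGFP and 16.4 to 19.6 CPM in OI-AdV-EGFP, and to 16.0 to 22.3 CPM in AdV-CRE-EGFP and 3.43 to 5.28 CPM in AdV-EGFP, chiefly from the VEGF receptor gene Kdr. The Schwann and glia markers, of which 2 of 3 were tested, summed to 5.79 to 8.54 CPM in OI-AdV-CRE-EGFP and 11.4 to 12.9 CPM in OI-AdV-EGFP, and to 2.14 to 2.90 CPM in AdV-CRE-EGFP and 2.0 to 3.24 CPM in AdV-EGFP. The 6 osteoblast markers, also all tested, summed to 37.6 to 42.6 CPM in OI-AdV-CRE-EGFP and 145 to 376 CPM in OI-AdV-EGFP, and to 52.4 to 90.9 CPM in AdV-CRE-EGFP and 54.1 to 111 CPM in AdV-EGFP. In OI-AdV-EGFP the sum came chiefly from Ibsp, at 220 CPM on average. At the adjusted p alone, induction left 3 higher and 1 lower in AdV-EGFP cells, and 1 higher and 3 lower in AdV-CRE-EGFP cells, beside the same shares of all genes. With Cre after induction 5 of these 6 markers were called lower and 0 higher, beside 2.61% of all genes called lower. All 6 were lower there at the adjusted p alone, beside 40.5% of all genes in either direction. No marker of these lists was at 0 in every library.

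With induction 2 inhibitors, Cdkn1c and Cdkn2a, rose with both viruses. In AdV-EGFP cells 2 of the 10 genes were called higher, where 15.1% of all genes tested were, and 0 lower, where 10.8% were. At the adjusted p alone 9 of 10 passed, 7 higher and 2 lower, beside 76.2% of all genes. In AdV-CRE-EGFP cells the same 2 genes were called higher, beside 12% of all genes, and Cdkn2c was called lower, beside 8.62%. Here 8 of 10 passed the adjusted p alone, beside 71.2% of all genes. The median log2 fold change of the 10 genes was 0.34 in AdV-CRE-EGFP cells, beside 0.02 over all genes, and 0.32 in AdV-EGFP cells, beside 0.05 over all genes. In bulk RNA, fewer cells of a type and less RNA per cell cannot be told apart, and this applies to each difference below.

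Between the viruses the differences were smaller. Before induction Cdkn1c alone was called, higher in AdV-CRE-EGFP than in AdV-EGFP, where 2.6% of all genes were called higher and 0.556% lower. The adjusted p alone passed for 7 of 10, of which 6 were higher, beside 29.3% of all genes. After induction edgeR called none of the 10 in either direction, beside 2.46% of all genes higher and 2.61% lower, and DESeq2 also called 0. At an unadjusted p under 0.05 there were 5, and the same number passed the adjusted p alone, 3 higher and 2 lower, beside 40.5% of all genes. The effect of Cre differed with induction for 5 of 10 genes, beside 22.8% of all genes: it was higher after than before induction for Ccnd1, and lower for Cdkn1a, Cdkn1b, Cdkn1c and Cdkn2b.

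**Figure D1:**
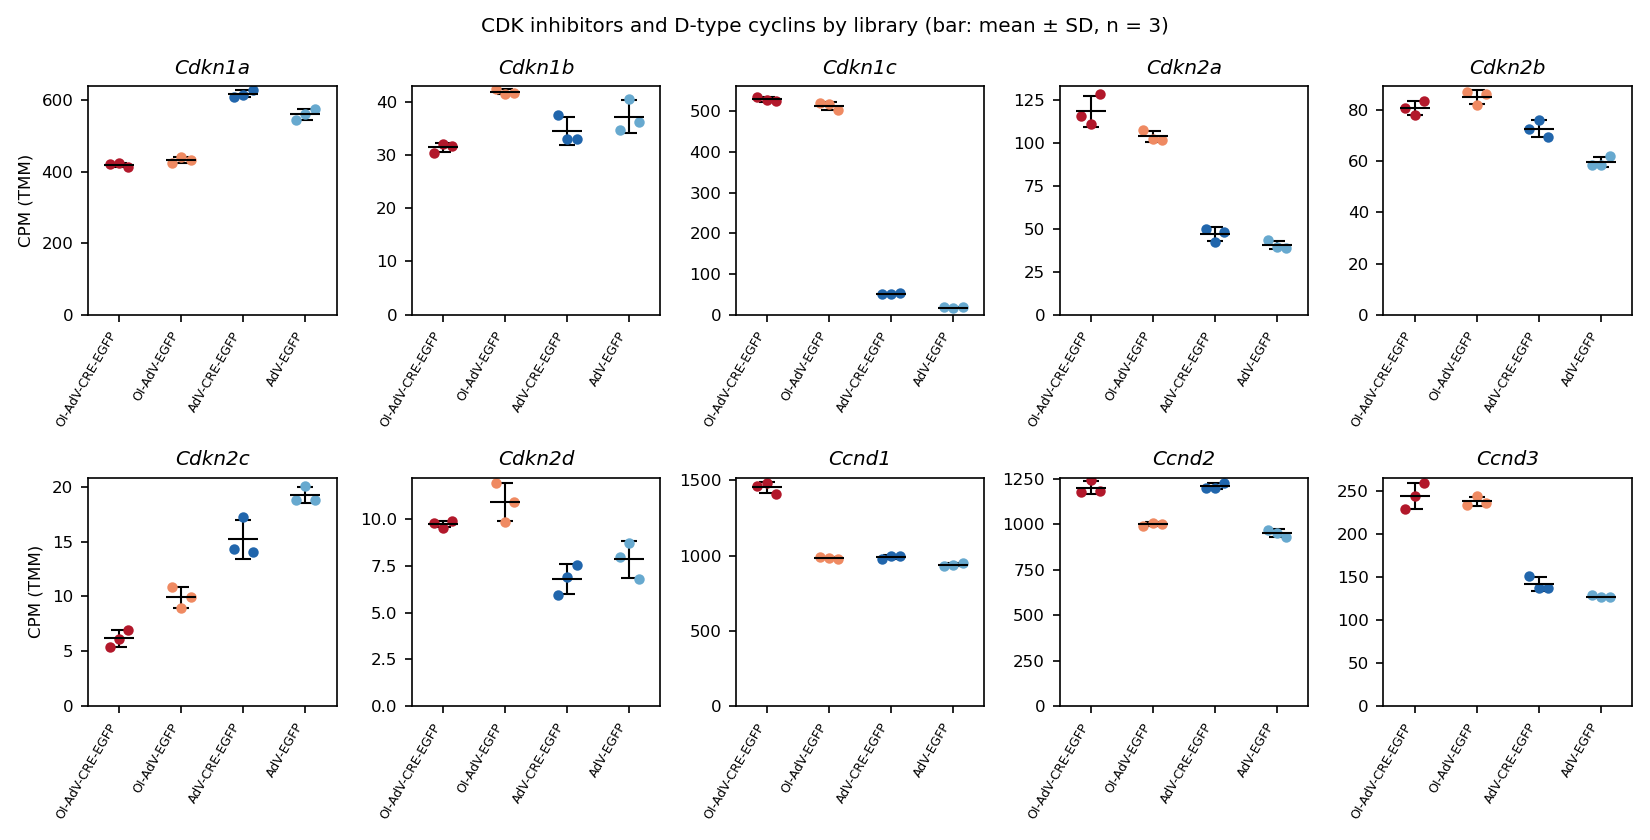
TMM-scaled CPM of the 10 genes in the 12 libraries, 1 panel per gene, with groups along the horizontal axis, points for libraries and bars for the mean and SD of 3 libraries. Cdkn1c lies at 503 CPM or more in the 6 induced libraries and at 52.1 CPM or less in the 6 libraries of day 0, and Ccnd1 at 1411 CPM or more in OI-AdV-CRE-EGFP and at 998 CPM or less in the other 9 libraries.

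**Figure D2:**
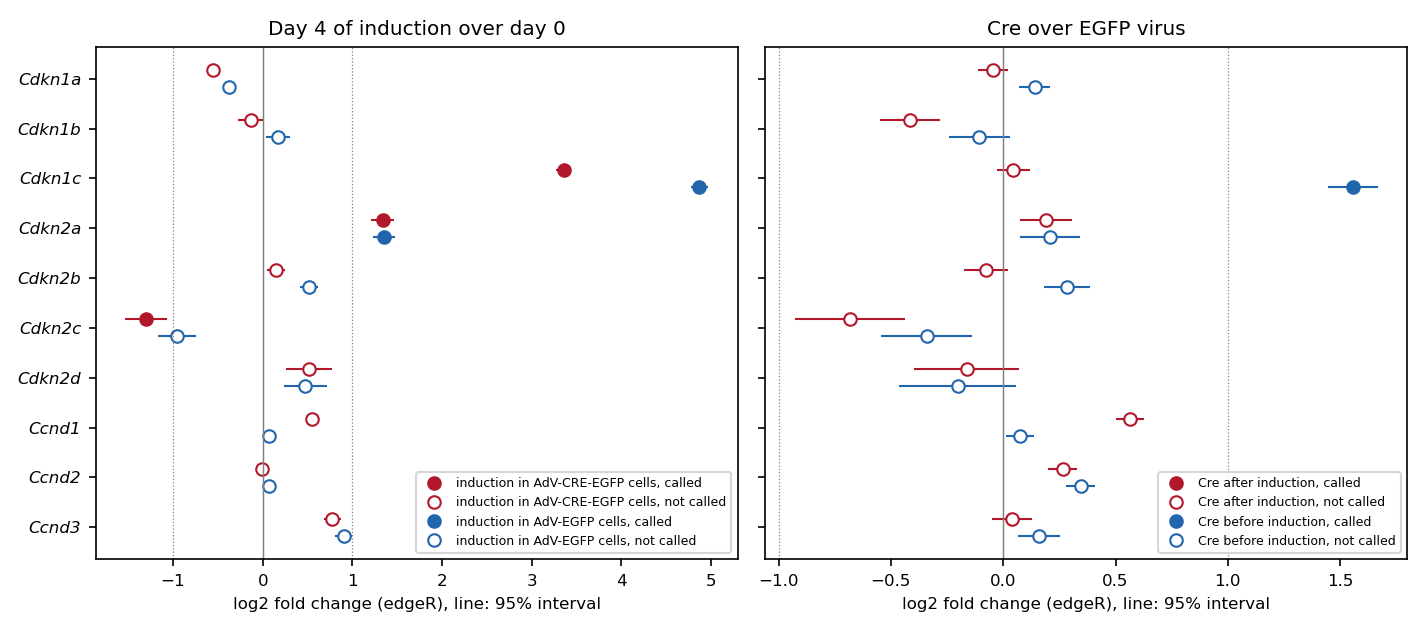
Log2 fold changes from edgeR with 95% intervals, for induction over day 0 on the left and for Cre over EGFP virus on the right, with filled points for called genes and dotted lines at a log2 fold change of 1 and −1. Cdkn1c and Cdkn2a are called for induction with both viruses, and the right panel holds 1 filled point, Cdkn1c before induction.

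Among the CIP/KIP genes, Cdkn1c made the largest move of the 10. It had 536, 528 and 524 CPM in OI-AdV-CRE-EGFP and 521, 517 and 503 CPM in OI-AdV-EGFP. On day 0 it had 51.7, 51.2 and 52.1 CPM in AdV-CRE-EGFP and 17.9, 16.0 and 18.7 CPM in AdV-EGFP. Every induced library stood far above every day 0 library, and on day 0 the 3 Cre libraries stood far above the 3 control libraries. Induction gave a log2 fold change of 3.36 in AdV-CRE-EGFP cells, which is 10.2-fold (standard error 0.04, edgeR's adjusted p = 9.9e-27), and of 4.87 in AdV-EGFP cells, which is 29.2-fold (standard error 0.05, edgeR's adjusted p = 7.4e-29). Before induction Cdkn1c was 2.94-fold higher in AdV-CRE-EGFP than in AdV-EGFP (log2 fold change 1.56, standard error 0.06, edgeR's adjusted p = 8.8e-17). After induction the log2 difference between the viruses was 0.04 (standard error 0.04, adjusted p = 0.36 from edgeR, 95% interval −0.03 to 0.12). The difference between the 2 Cre effects was −1.51 on the log2 scale (standard error 0.07, adjusted p = 1.7e-14 from edgeR). The summed markers of adipocytes, of macrophages and osteoclasts and of endothelium given above were also higher in AdV-CRE-EGFP than in AdV-EGFP on day 0, and higher after induction than before with both viruses. After induction these sums lay higher in OI-AdV-CRE-EGFP than in OI-AdV-EGFP, where the level of Cdkn1c was close. Single genes of these lists did not all follow the sums. With Cre after induction, at the adjusted p alone, 3 adipocyte genes were higher and 1 lower. So were 2 and 1 of macrophages and osteoclasts and 1 and 1 of endothelium, beside 40.5% of all genes in either direction. With induction in AdV-CRE-EGFP cells 1 endothelial gene was higher and 1 lower. The part of these cell types in the level of Cdkn1c was not tested.

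Cdkn1c lies on chromosome 7 of GRCm39, from 143012069 to 143014806 on the minus strand, and GENCODE vM39 lists 9 protein-coding transcripts for it. It overlaps the long noncoding RNA genes 4933417O13Rik on the same strand and Gm44732 on the other strand, neither of them among the deposited genes. Reads of the overlap with 4933417O13Rik cannot be told apart.

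Cdkn1a, which encodes p21 and is a classical target of p53, was lower after induction, short of a 2-fold change. It had 422, 423 and 413 CPM in OI-AdV-CRE-EGFP and 425, 440 and 432 CPM in OI-AdV-EGFP, against 609, 615 and 628 CPM in AdV-CRE-EGFP and 545, 561 and 575 CPM in AdV-EGFP. The induced libraries were all below those of day 0. The log2 fold change with induction was −0.56 in AdV-CRE-EGFP cells (standard error 0.04, adjusted p = 3.2e-13 from edgeR) and −0.37 in AdV-EGFP cells (standard error 0.03, adjusted p = 5.1e-10 from edgeR). Cre shifted it by −0.04 after induction (adjusted p = 0.32 from edgeR) and by 0.14 before induction (adjusted p = 0.003 from edgeR). The difference of −0.18 between these effects passed the test (adjusted p = 0.007 from edgeR) but did not in 4 of 21 alternatives. These were limma on log2(FPKM + 1) (−0.14, adjusted p = 0.058), limma on log2(FPKM + 0.1) (−0.14, adjusted p = 0.063), and edgeR without AdV-CRE-EGFP replicate 3 (−0.14, adjusted p = 0.069) or AdV-EGFP replicate 1 (−0.13, adjusted p = 0.066), in a range of 0.0045 to 0.069 over all 21.

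Cdkn1b, which encodes p27Kip1, was lower in Cre cells after induction. It had 30.4, 32.1 and 31.8 CPM in OI-AdV-CRE-EGFP, against 42.4, 41.5 and 41.7 CPM in OI-AdV-EGFP, so these groups did not overlap. On day 0 the groups overlapped, with 37.5, 33.0 and 32.9 CPM in AdV-CRE-EGFP and 34.7, 40.6 and 36.2 CPM in AdV-EGFP. The log2 difference with Cre was −0.41 after induction (standard error 0.07, adjusted p = 2.6e-05 from edgeR) and −0.11 before induction (standard error 0.07, adjusted p = 0.27 from edgeR). The difference between these effects, −0.31, passed the test (adjusted p = 0.024 from edgeR), but did not in 7 of 21 alternatives. These were DESeq2 (−0.28, adjusted p = 0.074), limma on log2(FPKM + 1) (−0.29, adjusted p = 0.13) and on log2(FPKM + 0.1) (−0.31, adjusted p = 0.13), and edgeR without OI-AdV-CRE-EGFP replicate 1 (−0.28), AdV-CRE-EGFP replicate 1 (−0.21), AdV-EGFP replicate 1 (−0.23) or AdV-EGFP replicate 3 (−0.26), with adjusted p between 0.012 and 0.13 over all 21.

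By FPKM, the make-up of the CIP/KIP family turned over with induction. Cdkn1c made up 57.6% to 58.4% of the summed CIP/KIP FPKM in OI-AdV-CRE-EGFP and 55.7% to 56.8% in OI-AdV-EGFP. On day 0 its share was 8.01% to 8.29% in AdV-CRE-EGFP and 2.70% to 3.52% in AdV-EGFP, where Cdkn1a held 88.5% to 89.1% in AdV-CRE-EGFP and 92.8% to 93.0% in AdV-EGFP. Cdkn1b stayed at 4.51% or less in every library. The sum itself was 571 to 573 FPKM in OI-AdV-CRE-EGFP and 579 to 590 FPKM in OI-AdV-EGFP, against 374 to 386 FPKM in AdV-CRE-EGFP and 333 to 355 FPKM in AdV-EGFP.

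**Figure D3:**
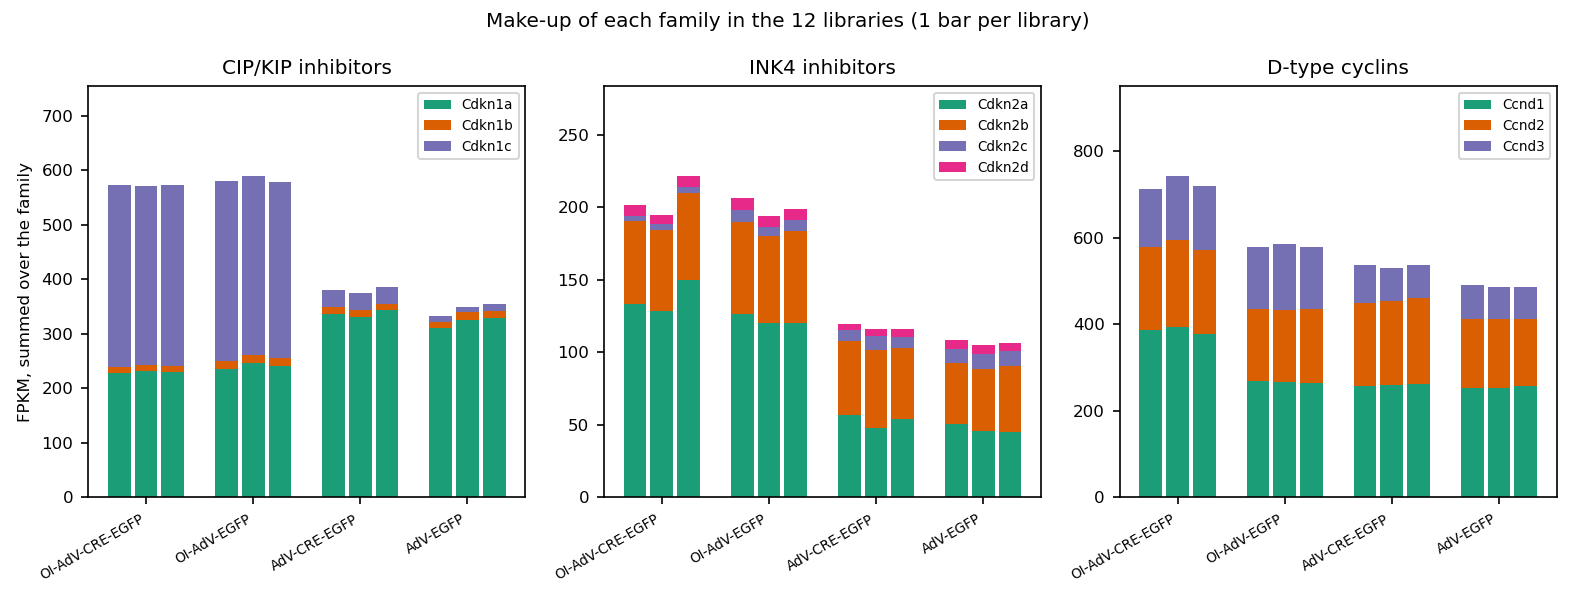
Summed FPKM of the CIP/KIP inhibitors, the INK4 inhibitors and the D-type cyclins, 1 stacked bar per library, grouped by treatment along the horizontal axis and coloured by gene. Cdkn1c is the largest segment of the CIP/KIP bars in the 6 induced libraries and Cdkn1a in the 6 libraries of day 0, and the cyclin bars are tallest in OI-AdV-CRE-EGFP.

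Of the INK4 genes, Cdkn2a rose with induction to a like degree with both viruses. It had 116, 111 and 129 CPM in OI-AdV-CRE-EGFP and 108, 102 and 102 CPM in OI-AdV-EGFP, against 49.9, 42.5 and 48.3 CPM in AdV-CRE-EGFP and 43.3, 39.6 and 39.0 CPM in AdV-EGFP. Every induced library lay above every library of day 0. The log2 fold change was 1.34 in AdV-CRE-EGFP cells (standard error 0.06, adjusted p = 1.5e-15 from edgeR) and 1.35 in AdV-EGFP cells (standard error 0.06, adjusted p = 1.1e-15 from edgeR), and their difference was −0.02 (95% interval −0.20 to 0.16, adjusted p = 0.92 from edgeR). With Cre it was higher by 0.19 after induction (adjusted p = 0.011 from edgeR) and by 0.21 before induction (adjusted p = 0.025 from edgeR), where the day 0 groups overlapped.

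Cdkn2a encodes p16Ink4a, an INK4 protein, and in another reading frame p19Arf, which binds MDM2 and stabilises p53. It lies on chromosome 4 of GRCm39, from 89192708 to 89212890 on the minus strand, and its gene count cannot tell the products apart. The transcript length behind the deposited FPKM, which is the count over FPKM and library total, was 859 to 860 bases in the 6 induced libraries and 869 to 873 bases in the 6 libraries of day 0. These ranges do not overlap, but the annotation behind them is not known, so they place the counts with neither product.

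Cdkn2b, which encodes p15Ink4b and lies 10314 bases beyond Cdkn2a on the same strand, was higher after induction, short of 2-fold. It had 80.7, 77.9 and 83.7 CPM in OI-AdV-CRE-EGFP and 87.0, 82.1 and 86.5 CPM in OI-AdV-EGFP, against 72.4, 76.1 and 69.5 CPM in AdV-CRE-EGFP and 58.4, 58.6 and 62.1 CPM in AdV-EGFP. The AdV-EGFP libraries of day 0 were the lowest, and those of OI-AdV-CRE-EGFP and OI-AdV-EGFP overlapped. Induction shifted it by 0.15 in AdV-CRE-EGFP cells (standard error 0.05, adjusted p = 0.01 from edgeR) and by 0.51 in AdV-EGFP cells (standard error 0.05, adjusted p = 2.4e-09 from edgeR). Cre shifted it by −0.08 after induction (adjusted p = 0.23 from edgeR) and by 0.28 before induction (adjusted p = 0.00018 from edgeR), a difference of −0.36 (standard error 0.07, adjusted p = 0.00064 from edgeR).

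Cdkn2c, which encodes p18Ink4c, was the one member called lower. It had 5.43, 6.11 and 6.98 CPM in OI-AdV-CRE-EGFP and 10.9, 8.95 and 9.95 CPM in OI-AdV-EGFP, against 14.3, 17.3 and 14.1 CPM in AdV-CRE-EGFP and 18.8, 20.1 and 18.8 CPM in AdV-EGFP. The 4 groups did not overlap, with OI-AdV-CRE-EGFP lowest and AdV-EGFP highest. Induction gave −1.30 in AdV-CRE-EGFP cells (standard error 0.12, edgeR's adjusted p = 6.8e-10), a called change, and −0.95 in AdV-EGFP cells (standard error 0.11, adjusted p = 2e-08 from edgeR), just inside the 2-fold limit. Cre gave −0.68 after induction (standard error 0.12, adjusted p = 9.8e-05 from edgeR) and −0.34 before induction (standard error 0.10, adjusted p = 0.015 from edgeR), and these effects were not shown to differ in edgeR (−0.34, adjusted p = 0.14). The difference did pass under limma on log2(FPKM + 1) (−0.55, adjusted p = 0.0205) and on log2(FPKM + 0.1) (−0.66, adjusted p = 0.0159), in a range of 0.016 to 0.34 over 21 alternatives.

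The fall of Cdkn2c was smaller in FPKM than in counts. Mean FPKM was 3.91 in OI-AdV-CRE-EGFP and 7.43 in OI-AdV-EGFP, against 8.51 in AdV-CRE-EGFP and 10.0 in AdV-EGFP. The transcript length behind these values was 1474 to 1740 bases in OI-AdV-CRE-EGFP and 1327 to 1372 bases in OI-AdV-EGFP, against 1657 to 1841 bases in AdV-CRE-EGFP and 1825 to 2005 bases in AdV-EGFP. Its coefficient of variation over the 12 libraries was 14.6%, beside a median of 1.73% over 10213 genes with at least 50 counts in every library. Under limma on log2(FPKM + 1) the change with induction was −0.95 in AdV-CRE-EGFP cells, no longer past 2-fold, and −0.39 in AdV-EGFP cells. With log2(FPKM + 0.1) it was −1.09 in AdV-CRE-EGFP cells, still past 2-fold, and −0.43 in AdV-EGFP cells. Without OI-AdV-EGFP replicate 1 the count-based change in AdV-EGFP cells was −1.02, past 2-fold.

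Cdkn2d, which encodes p19Ink4d, was among the least abundant of the 10, at 9.56 to 9.90 CPM in OI-AdV-CRE-EGFP and 9.88 to 11.9 CPM in OI-AdV-EGFP, against 5.96 to 7.58 CPM in AdV-CRE-EGFP and 6.79 to 8.75 CPM in AdV-EGFP. It was higher after induction by 0.52 in AdV-CRE-EGFP cells (adjusted p = 0.001 from edgeR) and by 0.48 in AdV-EGFP cells (adjusted p = 0.0013 from edgeR), short of 2-fold. With Cre it had −0.16 after and −0.20 before induction, neither of which passed the test. Cdkn2a held 65.9% to 67.7% of the summed INK4 FPKM in OI-AdV-CRE-EGFP and 60.5% to 62.2% in OI-AdV-EGFP, against 41.0% to 47.2% in AdV-CRE-EGFP and 42.6% to 46.5% in AdV-EGFP.

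The D-type cyclins were abundant in all groups, and Ccnd1, the cyclin D1 gene that mitogens induce, was highest in induced Cre cells. It had 1464, 1483 and 1411 CPM in OI-AdV-CRE-EGFP, against 992, 982 and 974 CPM in OI-AdV-EGFP. On day 0 it had 975, 995 and 998 CPM in AdV-CRE-EGFP and 934, 935 and 950 CPM in AdV-EGFP. The 3 libraries of induced Cre cells thus stood apart from the other 9, which lay close together. Cre gave 1.48-fold after induction (log2 fold change 0.56, standard error 0.03, adjusted p = 4e-13 from edgeR) and 1.05-fold before induction (log2 fold change 0.07, standard error 0.03, adjusted p = 0.084 from edgeR). The difference between the 2 effects was 0.49 (standard error 0.04, adjusted p = 9.8e-09 from edgeR). Induction gave 0.55 in AdV-CRE-EGFP cells (adjusted p = 6.8e-14 from edgeR) and 0.06 in AdV-EGFP cells (adjusted p = 0.068 from edgeR). Of the genes often used as references, Gapdh moved with Cre after induction by 0.55, Hprt by 0.79 and Actb by 0.21.

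Ccnd1 lies on chromosome 7 of GRCm39, from 144483668 to 144493662 on the minus strand, and overlaps LTO1, which the table also lists, on the other strand. No source used here says whether the counting used strand, so reads of the overlap cannot be told apart.

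Ccnd2, the cyclin D2 gene, was higher in Cre cells at both times, short of 2-fold. It had 1180, 1243 and 1185 CPM in OI-AdV-CRE-EGFP, against 990, 1010 and 1004 CPM in OI-AdV-EGFP. On day 0 it had 1200, 1200 and 1229 CPM in AdV-CRE-EGFP, against 972, 954 and 930 CPM in AdV-EGFP. The Cre groups lay above their controls without overlap at both times. Cre gave 0.26 after induction (standard error 0.03, adjusted p = 5e-07 from edgeR) and 0.35 before induction (standard error 0.03, adjusted p = 1.1e-08 from edgeR), with no difference shown between the effects (−0.08, 95% interval −0.17 to 0.01, adjusted p = 0.22 from edgeR). Induction shifted Ccnd2 by −0.01 in AdV-CRE-EGFP cells and by 0.07 in AdV-EGFP cells.

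Ccnd3, the cyclin D3 gene, was higher after induction with both viruses. It had 230, 244 and 259 CPM in OI-AdV-CRE-EGFP and 234, 244 and 236 CPM in OI-AdV-EGFP, against 152, 138 and 138 CPM in AdV-CRE-EGFP and 129, 126 and 127 CPM in AdV-EGFP. Induced and day 0 libraries did not overlap, while the 2 viruses overlapped after induction. The log2 fold change was 0.78 in AdV-CRE-EGFP cells (standard error 0.05, adjusted p = 1.9e-13 from edgeR) and 0.90 in AdV-EGFP cells (standard error 0.05, adjusted p = 8e-15 from edgeR), both short of 1. Cre gave 0.04 after induction (adjusted p = 0.55 from edgeR) and 0.16 before induction (adjusted p = 0.014 from edgeR). Ccnd3 overlaps Bysl on the other strand, so the same limit on strand applies.

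Summed over the 3 cyclins, FPKM was 712 to 743 in OI-AdV-CRE-EGFP and 579 to 587 in OI-AdV-EGFP, against 531 to 537 in AdV-CRE-EGFP and 487 to 491 in AdV-EGFP. Ccnd1 held 52.5% to 54.4% of that sum in OI-AdV-CRE-EGFP, against 45.3% to 46.4% in OI-AdV-EGFP. Ccnd3 held 18.8% to 20.6% in OI-AdV-CRE-EGFP and 24.9% to 26.3% in OI-AdV-EGFP, against 14.4% to 16.4% in AdV-CRE-EGFP and 15.6% to 15.8% in AdV-EGFP.

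Ordered by mean FPKM, the 10 genes differed between the groups mainly in where Cdkn1c stood. In OI-AdV-CRE-EGFP the order was led by Ccnd1 (386 FPKM), Cdkn1c (332 FPKM) and Cdkn1a (230 FPKM), and in OI-AdV-EGFP by Cdkn1c (327 FPKM), Ccnd1 (266 FPKM) and Cdkn1a (242 FPKM). On day 0 it was led by Cdkn1a, Ccnd1 and Ccnd2 with both viruses, at 337, 259 and 195 FPKM in AdV-CRE-EGFP and 322, 254 and 158 FPKM in AdV-EGFP. Cdkn1c was then in place 7 in AdV-CRE-EGFP (30.9 FPKM) and in place 8 in AdV-EGFP (11.1 FPKM). Most neighbours in these orders were apart in every library. The exceptions were Ccnd3 and Cdkn2a in OI-AdV-CRE-EGFP, Cdkn2d and Cdkn2c in OI-AdV-EGFP, Cdkn2a and Cdkn2b in AdV-CRE-EGFP, and Cdkn1b and Cdkn1c as well as Cdkn1c and Cdkn2c in AdV-EGFP.

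CDKs, other cyclins and genes that act with them were mostly lower after induction. The counts of this and the following lists stand beside the shares of all genes given above, which for induction were 12% called higher and 8.62% lower in AdV-CRE-EGFP cells and 15.1% higher and 10.8% lower in AdV-EGFP cells. Of the 12 CDKs, cyclins and related genes, 5 were called lower in AdV-CRE-EGFP cells and 7 in AdV-EGFP cells, and none was called higher. At the adjusted p alone 2 were higher with either virus. The median log2 fold change of the 12 was −0.97 in AdV-CRE-EGFP cells and −1.28 in AdV-EGFP cells. Ccna2, the S phase cyclin A2, had a log2 fold change of −2.35 in AdV-CRE-EGFP cells and −2.99 in AdV-EGFP cells. Ccne2, a cyclin E, had −1.49 in AdV-CRE-EGFP cells and −2.10 in AdV-EGFP cells. Cdk4 had 208 CPM in OI-AdV-CRE-EGFP and 224 CPM in OI-AdV-EGFP, against 294 CPM in AdV-CRE-EGFP and 320 CPM in AdV-EGFP. Cdk6 had 56.5 CPM in OI-AdV-CRE-EGFP against 45.6 CPM in OI-AdV-EGFP, a log2 difference of 0.31 (adjusted p = 0.0003 from edgeR), and −0.10 before induction (adjusted p = 0.25 from edgeR).

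Among 13 genes of the RB and E2F family, 3 fell and 1 rose in AdV-CRE-EGFP cells, and 4 fell and 1 rose in AdV-EGFP cells. The atypical repressors E2f7 and E2f8 moved most, by −2.33 and −3.24 in AdV-CRE-EGFP cells and by −3.51 and −3.83 in AdV-EGFP cells. Tfdp2, a dimerization partner of E2F proteins, rose by 1.04 in AdV-CRE-EGFP cells and by 1.16 in AdV-EGFP cells. Rb1, the retinoblastoma gene, had 57.3 CPM in OI-AdV-CRE-EGFP against 41.4 CPM in OI-AdV-EGFP (log2 difference 0.47, adjusted p = 9.9e-07 from edgeR).

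Genes of replication and mitosis that E2F factors control fell nearly as a group with induction: 17 of 20 in AdV-CRE-EGFP cells and 18 of 20 in AdV-EGFP cells, with a median log2 fold change of −1.75 in AdV-CRE-EGFP cells and −2.27 in AdV-EGFP cells. Mki67, a marker of cycling cells, had 38.0 CPM in OI-AdV-CRE-EGFP and 38.6 CPM in OI-AdV-EGFP, against 260 CPM in AdV-CRE-EGFP and 337 CPM in AdV-EGFP. The exception in Cre cells was Rrm2, a subunit of ribonucleotide reductase, which rose, with 340 CPM in OI-AdV-CRE-EGFP against 165 CPM in AdV-CRE-EGFP. Before induction 0 of 20 were called between the viruses, while 18 of 20 were lower in AdV-CRE-EGFP than in AdV-EGFP at the adjusted p alone, with a median of −0.40. After induction 5 of 20 were higher with Cre at the adjusted p alone and Rrm2 was called, with a median of 0.05. The effect of Cre was higher after induction than before for 16 of 20 genes and lower for 0. The part of cell cycling in the levels of the 10 genes was not tested.

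**Figure D4:**
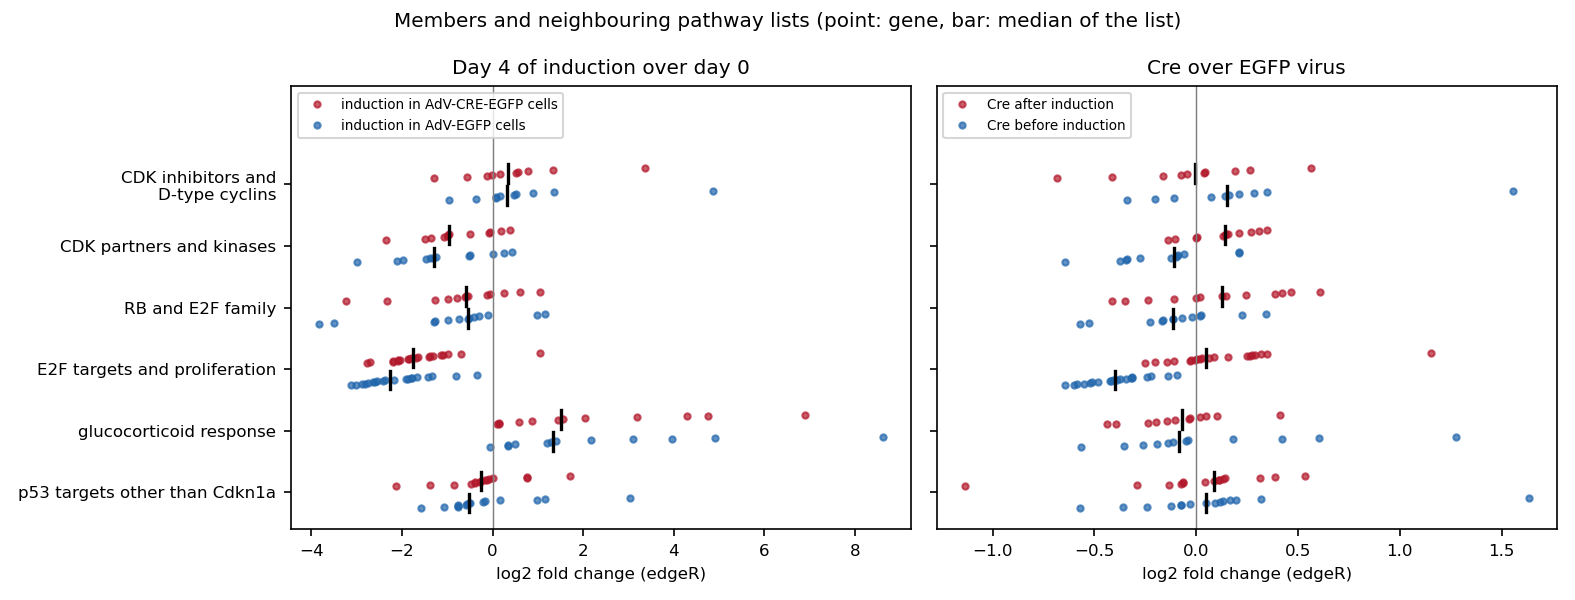
Log2 fold changes from edgeR for the 10 genes and for 5 lists around them, with induction over day 0 on the left and Cre over EGFP virus on the right, 1 point per gene and a black bar at the median of each list. In the left panel the E2F targets lie left of 0 except Rrm2 in AdV-CRE-EGFP cells, and the medians of the glucocorticoid list lie to the right of 0. In the right panel the medians of the glucocorticoid list are −0.069 after and −0.084 before induction.

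Of the regulators upstream of the members, Trp53 itself, the p53 gene, was lower after induction, with 57.3 to 61.9 CPM in OI-AdV-CRE-EGFP and 55.4 to 63.8 CPM in OI-AdV-EGFP, against 105 to 114 CPM in AdV-CRE-EGFP and 124 to 133 CPM in AdV-EGFP. Of 15 p53 targets other than Cdkn1a, 2 fell and 1 rose in AdV-CRE-EGFP cells, and 2 fell and 2 rose in AdV-EGFP cells, which is near the shares of all genes called. At the adjusted p alone 10 were lower and 3 higher in AdV-CRE-EGFP cells, beside 71.2% of all genes in either direction. In AdV-EGFP cells 11 were lower and 4 higher, beside 76.2%. The median log2 fold change of the 15 was −0.265 in AdV-CRE-EGFP cells, beside 0.017 over all genes, and −0.532 in AdV-EGFP cells, beside 0.047. Mdm2, which encodes the ubiquitin ligase of p53, fell, with a log2 fold change of −1.38 in AdV-CRE-EGFP cells and −1.57 in AdV-EGFP cells. Sesn1, a sestrin gene, rose by 1.70 in AdV-CRE-EGFP cells and by 3.03 in AdV-EGFP cells. Gdf15, a secreted stress factor, was the one called target before induction, higher by 1.63 in AdV-CRE-EGFP than in AdV-EGFP. Among 17 transcriptional and epigenetic regulators of the members, 5 fell and 1 rose in AdV-CRE-EGFP cells and 6 fell and 3 rose in AdV-EGFP cells. Foxm1, a proliferation factor, fell in both, with −1.84 in AdV-CRE-EGFP cells and −2.65 in AdV-EGFP cells. Id3, an inhibitor of bHLH factors, rose in both, by 1.44 in AdV-CRE-EGFP cells and by 1.20 in AdV-EGFP cells.

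Since the osteogenic medium holds dexamethasone, genes known to respond to glucocorticoids were read beside Cdkn1c, which glucocorticoids are known to induce in human HeLa cells. Of 12 such genes 7 rose in AdV-CRE-EGFP cells and 8 in AdV-EGFP cells, with a median log2 fold change of 1.5 in AdV-CRE-EGFP cells and 1.34 in AdV-EGFP cells, and none fell. Fkbp5, a co-chaperone of the receptor, rose by 4.29 in AdV-CRE-EGFP cells and by 3.96 in AdV-EGFP cells, and Tsc22d3, which encodes GILZ, by 4.76 in AdV-CRE-EGFP cells and by 4.92 in AdV-EGFP cells. Before induction none of the 12 was called between the viruses. At the adjusted p alone 3 were then higher with Cre, Dusp1 (0.60), Klf9 (0.42) and Mt1 (0.18), and 3 lower, Fkbp5 (−0.57), Errfi1 (−0.35) and Sgk1 (−0.26). The part of dexamethasone in the level of Cdkn1c was not tested and cannot be told apart from the other components of the medium.

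The imprinted domain of chromosome 7 around Cdkn1c moved less than Cdkn1c itself. Of 12 listed genes 8 were tested, and 2 of these were called higher with induction with both viruses and none lower. At the adjusted p alone 5 were higher and 2 lower in AdV-CRE-EGFP cells, and 4 higher and 3 lower in AdV-EGFP cells. The called genes were Slc22a18, a transporter gene, with 1.89 in AdV-CRE-EGFP cells and 2.58 in AdV-EGFP cells, and Tspan32, a tetraspanin gene at about 1 CPM or less in every group, with 2.03 in AdV-CRE-EGFP cells and 2.93 in AdV-EGFP cells. Between the viruses 0 of 8 were called, before or after induction. Phlda2, which is expressed from the maternal allele as Cdkn1c is, stayed at 0.122 CPM on average or less in each group, and Kcnq1ot1, the long RNA of the domain, was not analysed here.

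Of 12 genes of the ubiquitin ligases and kinases that act on the turnover of these proteins, 2 were called for induction, both lower, beside 8.62% of all genes in AdV-CRE-EGFP cells and 10.8% in AdV-EGFP cells, and none between the viruses. Skp2, which targets p27Kip1, fell, with a log2 fold change of −1.25 in AdV-CRE-EGFP cells and −1.81 in AdV-EGFP cells. Dtl, which targets p21, fell as well, with −2.13 in AdV-CRE-EGFP cells and −2.22 in AdV-EGFP cells. The deposited values are RNA levels, and the proteins were not analysed here.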

How the data were processed

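RNA of 12 libraries, 3 per group, was prepared by the authors with the NEBNext Ultra II kit. Reads were trimmed with Cutadapt, aligned to GRCm39 with HISAT2 and counted with HTSeq, per the labels and the study's methods. The deposited table gives the authors' estimated counts per gene, not scaled between libraries, with values that are not whole for 1646 to 1844 genes per library. It also gives the authors' FPKM values, divided by a transcript length that differs between libraries for some genes. No column of per-sample values was left unused. The annotation release and the strand setting are not given in the sources used here.

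Estimated counts were rounded and tested in edgeR 4.0.16 (quasi-likelihood F test, TMM, filterByExpr, 4 group means over 12 libraries, common biological coefficient of variation 0.0472) in R 4.3.3. The script was tested on simulated data. CPM values used the same TMM factors, except those of summed markers and of genes not tested, which used library totals alone. Alternatives were DESeq2 1.42.0 and its size factors, upper quartile factors, library totals, other filters, the groups compared alone, a replicate block, limma 3.58.1 on log2(FPKM + 1) and log2(FPKM + 0.1), and each library left out. Libraries of a group differed by a chi-square of 2.18 to 5.24 per gene, so each was used once.

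Named besides the 10 genes were up to 6 called members with the largest change per list and comparison, genes with a defining role, Plagl1, Trp53, Actb, Gapdh and Hprt, and for each called member the 3 genes of nearest profile among 9230 with a mean of at least 10 CPM. Dusp1, Klf9, Mt1, Errfi1, Sgk1, Kdr, Ctsk, Glb1 and Igfbp7 were named after their values were seen. The members and lists were chosen with earlier results of these data known. Positions come from GRCm39 with GENCODE vM39, matched by Ensembl ID. Promoter sequences are not reported here.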

Additional observations from a re-analysis of the deposited data

Results flagged for a closer look

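The effect of Cre after induction differed from that before induction, by the interaction test in edgeR, for 5 of the 10 genes. The difference, after minus before on the log2 scale, was −1.51 for Cdkn1c, −0.36 for Cdkn2b, −0.31 for Cdkn1b, −0.18 for Cdkn1a and 0.49 for Ccnd1. Day 4 and induction are the same contrast here, so the difference cannot be told apart from one between the times.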

How the results depend on the processing

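Of 850 values of single genes under 22 alternatives, 835 kept their side of the threshold and 0 changed sign when called. The 12 that were no longer past it were Cdkn1a and Cdkn1b for the interaction and Cdkn2c for induction in AdV-CRE-EGFP cells, and the 3 that passed it were those of Cdkn2c. Values that kept their side could still change sign, as Ccnd3 did for Cre after induction (−0.044 to 0.081). They could also change size, as Cdkn2c did for induction in AdV-EGFP cells, from −0.955 to −0.393 under limma on log2(FPKM + 1). The causes were not tested. Leaving out 1 library gave 2 to 3 called genes for induction in AdV-EGFP cells (2 with all), 3 for induction in AdV-CRE-EGFP cells, 0 for Cre after and 1 for Cre before induction, and 3 to 5 for the interaction (5 with all), the lowest without AdV-EGFP replicate 1, where Cdkn1a and Cdkn1b were lost. The largest shift of the median of all genes was 0.0674 log2. At the adjusted p alone some members were lost in at least 1 alternative: Cdkn1b and Ccnd2 for induction in AdV-EGFP cells (highest adjusted p 0.23 and 0.31), Cdkn2a for Cre after induction (0.12), and Cdkn1a, Cdkn2a, Cdkn2c and Ccnd3 for Cre before induction (0.17, 0.18, 0.15 and 0.37). Over all genes, limma on log2(FPKM + 1) called 868 higher and 579 lower for induction in AdV-CRE-EGFP cells (1646 and 1179 in edgeR), 1176 and 845 in AdV-EGFP cells (2063 and 1478), 111 and 131 for Cre after induction (336 and 357), and 115 and 7 for Cre before induction (356 and 76). Replicate numbers are shared by the groups, but libraries of the same number did not deviate together, with correlations of −0.05 to 0.04 in 18 pairs and 11 of 36 best with their own number. A replicate block gave 2, 3, 0, 1 and 5 called genes, as without it, and changed no other call.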

Other observations

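Senescence, with which Cdkn2a and Cdkn1a are linked, has genes of its own beside them. Of 10 such genes, some known to be low and others high in senescent cells, 5 fell in AdV-CRE-EGFP cells, and 5 fell and 1 rose in AdV-EGFP cells. Lmnb1, the lamin B1 gene that is low in senescent cells, had 6.79 CPM in OI-AdV-CRE-EGFP and 6.71 CPM in OI-AdV-EGFP, against 31.1 CPM in AdV-CRE-EGFP and 45.1 CPM in AdV-EGFP. The secreted factors Ccl2 and Il6, which are high in senescent cells, fell too, Ccl2 with a log2 fold change of −2.81 in AdV-CRE-EGFP cells and −2.43 in AdV-EGFP cells, and Il6 with −1.16 in AdV-CRE-EGFP cells and −2.08 in AdV-EGFP cells. Glb1, which encodes the senescence-associated β-galactosidase, was higher by 0.46 in AdV-CRE-EGFP cells and by 0.63 in AdV-EGFP cells, and Igfbp7 by 0.58 in AdV-CRE-EGFP cells and by 0.31 in AdV-EGFP cells, both short of 2-fold. Igfbp3, an IGF-binding protein, was higher by 0.57 in AdV-CRE-EGFP cells, short of 2-fold, and rose by 2.93 in AdV-EGFP cells.

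Imprinted growth genes outside the domain of Cdkn1c moved in either direction. Igf2, a growth factor, had 711 to 774 CPM in OI-AdV-CRE-EGFP, against 1428 to 1600 CPM in OI-AdV-EGFP, and on day 0 it had 767 to 802 CPM in AdV-CRE-EGFP and 725 to 771 CPM in AdV-EGFP. OI-AdV-EGFP thus stood above the other groups, with a log2 fold change with induction of −0.10 in AdV-CRE-EGFP cells and 1.04 in AdV-EGFP cells. Dlk1, a preadipocyte factor, had a log2 difference with Cre of −1.68 after induction, and induction gave −0.285 in AdV-CRE-EGFP cells and 1.71 in AdV-EGFP cells. Peg10 had a difference with Cre of 2.27 after induction, and induction gave 0.44 in AdV-CRE-EGFP cells and −1.49 in AdV-EGFP cells. Before induction Mest and Peg3 were higher in AdV-CRE-EGFP than in AdV-EGFP, by 1.83 and 1.59, as Cdkn1c was by 1.56. Between the viruses, of the 10 imprinted growth genes tested, Plagl1 among them, 1 was called higher and 2 lower with Cre after induction. Of all genes, 2.46% were called higher and 2.61% lower there. Before induction 2 of the 10 were called with Cre, both higher, beside 2.6% of all genes called higher.

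Of the genes next to Cdkn2a and Cdkn2b on chromosome 4, 3 were tested, and they moved in either direction with induction. Mtap, a gene of methionine salvage, was lower, with −0.88 in AdV-CRE-EGFP cells and −0.81 in AdV-EGFP cells, where Cdkn2a had 1.34 in AdV-CRE-EGFP cells and 1.35 in AdV-EGFP cells. Dmrta1, at 2.89 CPM on average or less in each group, rose by 4.47 in AdV-CRE-EGFP cells and by 3.87 in AdV-EGFP cells. Elavl2, at 1.46 CPM on average or less, fell in AdV-EGFP cells (−2.42) and did not pass the test in AdV-CRE-EGFP cells (−0.655).

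The profiles over the 12 libraries nearest to those of the called members were found by the root mean square difference of centred log2 CPM among 9230 genes, as a description. For Cdkn1c they were Plin4, a fat droplet protein (0.286), Pla1a, a phospholipase (0.322), and Cdo1, a cysteine dioxygenase (0.329). For Cdkn2a they were Iscu, an iron-sulfur cluster scaffold (0.0757), Acadm, of fatty acid oxidation (0.086), and Rabac1 (0.0922). For Cdkn2c they were Fbln1, a fibulin (0.127), S1pr3, a sphingosine phosphate receptor (0.138), and Farp1 (0.155). The libraries of a group lie close together, so these profiles share the order of 4 group means more than 12 separate points.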
